A study of Mus musculus with 21 samples.

Results

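The genes described here are 10 genes of Wnt signalling in mouse embryonic fibroblasts (MEFs): the ligands *Wnt5a* and *Wnt4*, the secreted antagonists *Sfrp1*, *Sfrp2*, *Dkk2* and *Dkk3*, the feedback and target genes *Axin2*, *Nkd1* and *Lef1*, and the matricellular gene *Wisp1*. They are identified by their symbols in the deposited gene table, where they are 10 of 24454 genes, and all 10 were among the 13719 genes with enough counts to be tested. Polyadenylated RNA was sequenced in 21 libraries, 3 in each of 7 groups. The sample labels number the libraries of a group as biological replicates. *Rtel1* F/F MEFs carry floxed alleles of *Rtel1*, a helicase gene, and were infected with Ad-GFP (+GFP), with Ad-Cre (+Cre), or with Ad-GFP followed by 10 µM TMPyP4, a porphyrin that binds G-quadruplex (G4) DNA, for the last 48 h (+GFP +TMPyP4). *Rtel1* F/F MEFs transduced with RTEL1 C1252A/C1255A, a mutant form of the helicase, were infected with Ad-GFP or with Ad-Cre. MEFs with floxed alleles of *Terf1*, the shelterin gene that the labels call Trf1, were also infected with Ad-GFP or with Ad-Cre. RNA was collected 96 h after infection in all groups, so every control also carries an adenovirus, and the floxed *Rtel1* and *Terf1* cells are separate lines, so that line and genotype cannot be told apart.

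Wnt ligands are secreted proteins that bind Frizzled receptors on neighbouring cells. In the canonical branch they act with LRP co-receptors to stabilise β-catenin, which joins TCF/LEF factors on DNA, whereas the non-canonical branch works through planar polarity and calcium signals. Secreted antagonists bind the ligands or the co-receptors, several targets feed back on the pathway, and in fibroblasts the pathway is known for its part in growth, matrix production and the patterning of limbs and skin.

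Total counts per library ran from 32069888 to 51938593, with a median of 43013208. Levels within a gene are given as normalized CPM (counts scaled to the size of each library), and levels between genes as TPM (transcript abundances that also allow for transcript length). Marker genes and a few pathway genes are also given by group in TPM. A gene was called changed where the adjusted p was at most 0.01, from the quasi-likelihood test of edgeR adjusted by the Benjamini-Hochberg method over all genes tested. Changes are log2 fold changes with their standard error (SE), from 3 libraries per group.

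The cells expressed the genes that define fibroblasts, with 1 exception. All 12 fibroblast markers were tested. By mean TPM the most abundant was *Sparc*, a matrix gene, in *Rtel1* F/F +GFP cells (2123 TPM, against 1653 for *Vim*), and *Vim*, an intermediate filament gene, in each of the other 6 groups. The summed TPM of these markers was 9635 to 10250 in *Rtel1* F/F +GFP, 4423 to 5117 in +Cre and 5745 to 7005 with TMPyP4. It was 4745 to 6205 in RTEL1 C1252A/C1255A +GFP and 4148 to 5648 in +Cre cells, and 11020 to 14150 in *Terf1* F/F +GFP and 10870 to 12730 in +Cre cells. No fibroblast marker had a count of 0 in any library, but *Thy1*, which marks many fibroblasts, had a mean of 0.05 TPM in *Rtel1* F/F +GFP cells against 325 TPM in *Terf1* F/F +GFP cells. Markers of other cell types were low: over all libraries the summed TPM was 0.1 to 1.71 for endothelial, 1.01 to 3.92 for epithelial, 0.22 to 3.36 for muscle and 1.93 to 12.31 for blood cell markers. Neural and glial markers summed to 57.25 to 167.2 TPM, mostly *Nes*, and cartilage and fat markers to 9.04 to 65.51 TPM. In bulk RNA, fewer cells of a type and less RNA per cell cannot be told apart. The markers moved with the comparisons: 11 of the 12 fibroblast markers were called after *Rtel1* loss (2 higher and 9 lower), 9 with TMPyP4 (all lower), and 11 between RTEL1 C1252A/C1255A +GFP and *Rtel1* F/F +GFP cells (2 higher and 9 lower), where 43.0%, 30.0% and 44.7% of all genes tested were called. The part of these markers in the changes of the Wnt genes was not tested.

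Cartilage markers moved with the same comparisons. The summed TPM of the 7 cartilage and fat markers was 44.75 to 65.51 in *Rtel1* F/F +GFP, 10.42 to 13.76 in +Cre, 9.98 to 14.44 with TMPyP4 and 9.9 to 11.95 in RTEL1 C1252A/C1255A +GFP cells. It was 9.04 to 12.71 in RTEL1 C1252A/C1255A +Cre, 33.65 to 36.5 in *Terf1* F/F +GFP and 28.85 to 33.85 in *Terf1* F/F +Cre cells. *Col2a1*, which encodes the main collagen of cartilage, led the list in *Rtel1* F/F +GFP cells with a mean of 40.5 TPM, and had 2.49 TPM in +Cre, 6.4 TPM in TMPyP4-treated and 1.62 TPM in RTEL1 C1252A/C1255A +GFP cells. In the *Terf1* F/F groups *Fabp4*, a fat marker, led instead (27.5 and 22.3 TPM), while the fat marker *Plin1* had a mean of 0 TPM in every group. Of the 4 markers tested, 2 were called lower after *Rtel1* loss, 3 with TMPyP4 and 2 between RTEL1 C1252A/C1255A +GFP and *Rtel1* F/F +GFP cells, beside 21%, 13.4% and 22.1% of all genes. Among the other lists, 2 of 3 endothelial, 1 of 2 blood cell and 1 of 4 neural and glial markers were called higher after *Rtel1* loss, and of 4 epithelial markers 1 was higher and 1 lower, while with TMPyP4 the only call was 1 epithelial marker, which was lower. The endothelial calls were near the floor, with mean TPM in *Rtel1* F/F +GFP and +Cre cells of 0.00667 and 0.1 for *Cdh5* and 0.0167 and 0.0733 for *Kdr*. The shares of all genes called lower are those given above, with 22.0% called higher after *Rtel1* loss and 16.6% with TMPyP4. The part of all these markers in the changes of the Wnt genes was not tested either.

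The *Rtel1* F/F +GFP libraries stood apart from the other libraries of that line. The first principal component of the 15 libraries with floxed *Rtel1* took 52.4% of their variance and placed the 3 +GFP libraries at 55.7, 76.4 and 72.9. The other 12 libraries lay between -47.7 and 26.4, those of RTEL1 C1252A/C1255A +GFP cells among them. Since the *Rtel1* F/F +GFP libraries are the control of both *Rtel1* loss and TMPyP4, each of these comparisons is also given with the RTEL1 C1252A/C1255A +GFP libraries as its control, an alternative chosen after seeing the data. That control differs by its vector and its culture, and these cannot be told apart.

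The targeted genes themselves changed. *Rtel1* was at 66.2, 59.1 and 60.2 CPM in *Rtel1* F/F +GFP cells and at 29.9, 31.9 and 26.8 CPM in +Cre cells. Every +Cre library lay below every +GFP library, with a log2 fold change of -1.07 (SE 0.0787, adjusted p = 5.40e-09). RTEL1 C1252A/C1255A cells had 338, 328 and 331 CPM with Ad-GFP and 283, 253 and 257 CPM with Ad-Cre, a difference of -0.33 (SE 0.0768) that did not pass the test (adjusted p = 0.0241) although the libraries did not overlap. Transcripts of the endogenous gene and of the vector cannot be told apart in these counts. *Terf1* was at 27.9, 29.6 and 30.3 CPM in *Terf1* F/F +GFP cells and at 0.110, 0.0458 and 0.0268 CPM in +Cre cells, a loss of nearly all transcripts (log2 fold change -8.79, SE 0.159, adjusted p = 3.83e-17).

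How many of the 10 Wnt genes were called differed between the comparisons, and each count is set beside the share of all genes tested. After *Rtel1* loss (*Rtel1* F/F +Cre against +GFP), 7 of the 10 were called, 2 higher and 5 lower, where 43.0% of all genes were called, 22.0% higher and 21% lower. With TMPyP4, which shares its +GFP libraries with the comparison before, 6 were called, 3 higher and 3 lower, against 30.0% of all genes, 16.6% higher and 13.4% lower. Cre in RTEL1 C1252A/C1255A cells gave 1 call, *Dkk3*, which was lower, against 2 with replicate numbers blocked and 3 with DESeq2. With edgeR and no block 1.09% of all genes were called, 0.525% higher and 0.569% lower, and 6 of the 10 genes had an unadjusted p under 0.05. Cre in *Terf1* F/F cells gave 0 calls with edgeR, where 3.42% of all genes were called, 2.65% higher and 0.765% lower. In the *Terf1* F/F comparison 1 of the 10 genes had an unadjusted p under 0.05, and DESeq2 also called 0. In +Cre cells set directly against TMPyP4-treated cells, a comparison free of the shared control, 6 were called, 2 higher and 4 lower in +Cre cells, against 15.2% of all genes, 6.13% higher and 9.09% lower.

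Cells that had not been given Cre also differed. RTEL1 C1252A/C1255A +GFP against *Rtel1* F/F +GFP cells gave 5 calls, 2 higher and 3 lower, beside 44.7% of all genes, 22.6% higher and 22.1% lower. *Terf1* F/F +GFP against *Rtel1* F/F +GFP cells gave 7 calls, 4 higher and 3 lower, beside 54.9% of all genes, 30.3% higher and 24.5% lower. What Cre did in *Rtel1* F/F cells was tested against what it did in RTEL1 C1252A/C1255A cells, and 5 of the 10 genes differed, 2 with a positive and 3 with a negative difference, beside 25.1%, 12.8% and 12.3% of all genes. Against the effect of Cre in *Terf1* F/F cells, 7 differed, 2 with a positive and 5 with a negative difference, beside 30.2%, 15.8% and 14.5% of all genes. All 10 genes passed the filter on low counts, but *Dkk2*, *Nkd1*, *Wnt4* and *Sfrp1* had fewer than 10 counts in at least some libraries and passed through the groups in which they were higher.

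The control mattered for these counts. With RTEL1 C1252A/C1255A +GFP libraries as the control, *Rtel1* F/F +Cre cells had 4 calls among the 10 genes, 0 higher and 4 lower, beside 7.76% of all genes, 3.80% higher and 3.95% lower. TMPyP4-treated cells then had 7 calls, 3 higher and 4 lower, beside 17.0% of all genes, 9.94% higher and 7.07% lower. *Wnt5a*, *Sfrp2* and *Dkk3* were called lower after *Rtel1* loss with either control. The direction for *Dkk2*, *Nkd1* and *Wnt4* turned with the control, for *Wnt4* without a call in either case. The calls of *Nkd1*, *Sfrp1* and *Axin2* after *Rtel1* loss were lost. Among the genes called with TMPyP4, *Sfrp2* and *Dkk3* were lower and *Wisp1* was higher with either control.

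**Figure D1:**
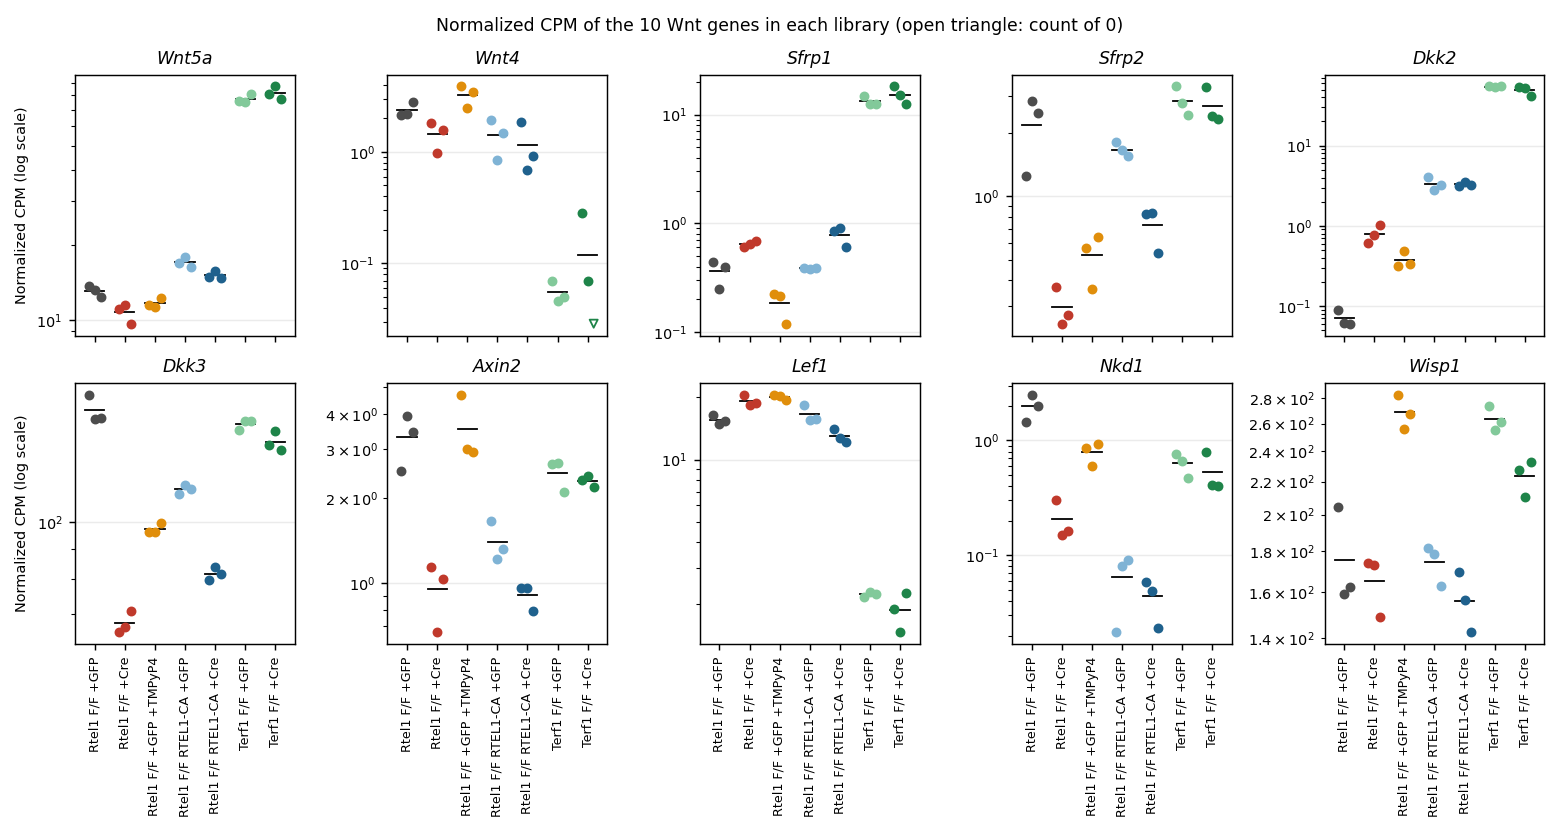
Normalized CPM (log scale) of each of the 10 Wnt genes in the 7 groups, with 1 point for each of 3 libraries, a bar at the mean, and an open triangle for a count of 0. *Dkk2* and *Sfrp1* were highest in the *Terf1* F/F libraries, *Lef1* and *Wnt4* were lowest there, and *Dkk3* differed between the *Rtel1* F/F groups with little spread among libraries.

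In length-adjusted terms the 10 genes covered a wide range of abundance. In *Rtel1* F/F +GFP cells *Dkk3* had the highest mean of the 10, at 96.8 TPM, and *Wisp1* followed with 72.1 TPM. *Lef1* had 11.3 TPM and *Wnt5a* 7 TPM, while *Sfrp2* had 2.40, *Axin2* 1.61 and *Wnt4* 1.29 TPM. *Nkd1* had 0.957 TPM, *Sfrp1* 0.173 TPM and *Dkk2* 0.04 TPM, the last from a sum of 10 counts in the 3 libraries. *Terf1* F/F +GFP cells had another order, with *Wisp1* at 107 TPM, *Dkk3* at 90.4, *Wnt5a* at 41.4 and *Dkk2* at 30.3 TPM. *Sfrp1* had 6.21, *Sfrp2* 3.06, *Lef1* 1.71, *Axin2* 1.18, *Nkd1* 0.300 and *Wnt4* 0.03 TPM in those cells.

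*Wnt5a* encodes the main non-canonical ligand of embryonic mesenchyme. Its level was 13.6, 13.3 and 12.3 CPM in *Rtel1* F/F +GFP, 11.1, 11.5 and 9.66 CPM in +Cre, and 11.5, 11.3 and 12.2 CPM in TMPyP4-treated cells. In RTEL1 C1252A/C1255A cells it was 16.9, 17.9 and 16.3 CPM with Ad-GFP and 14.9, 15.7 and 14.8 CPM with Ad-Cre. *Terf1* F/F cells had 75.7, 74.9 and 80.8 CPM with Ad-GFP and 81.3, 86.8 and 77.3 CPM with Ad-Cre. The *Terf1* F/F libraries thus stood far above all others and overlapped each other, and the lowest groups, TMPyP4 and *Rtel1* F/F +Cre, overlapped too, while all other neighbours in the order of means were separate. *Wnt5a* fell after *Rtel1* loss by a small amount (log2 fold change -0.28, SE 0.0732, adjusted p = 0.00334). That call was lost without +GFP library 1 (-0.25, adjusted p = 0.0165), without +GFP library 2 (-0.25, adjusted p = 0.0346) or without +Cre library 3 (-0.20, adjusted p = 0.0572). It was also lost with DESeq2 size factors in edgeR (-0.26, adjusted p = 0.0101), with no filter on low counts (adjusted p = 0.0143) and with only the groups compared (-0.28, adjusted p = 0.0582), while with the RTEL1 C1252A/C1255A +GFP control the fall was larger (-0.66, SE 0.0731, adjusted p = 4.34e-06). With TMPyP4 the log2 fold change was -0.16 (adjusted p = 0.0840) against the *Rtel1* F/F control and -0.54 (adjusted p = 2.31e-05) against the RTEL1 C1252A/C1255A control. Between the control cells, *Wnt5a* was higher in *Terf1* F/F than in *Rtel1* F/F MEFs by a log2 fold change of 2.56 (SE 0.0748, adjusted p = 4.16e-15), and higher in RTEL1 C1252A/C1255A than in *Rtel1* F/F MEFs by 0.38 (SE 0.0723, adjusted p = 0.000209). Cre gave -0.17 (adjusted p = 0.255) in RTEL1 C1252A/C1255A and 0.08 (adjusted p = 0.636) in *Terf1* F/F cells.

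*Wnt4*, a ligand known from kidney and gonad development, was low in the *Rtel1* F/F line and almost absent from the *Terf1* F/F line. It was at 2.14, 2.18 and 2.80 CPM in *Rtel1* F/F +GFP, 1.82, 0.968 and 1.58 CPM in +Cre, and 3.87, 2.46 and 3.46 CPM in TMPyP4-treated cells. In cells with the RTEL1 C1252A/C1255A mutant it was at 1.92, 0.841 and 1.48 CPM after Ad-GFP and 1.86, 0.687 and 0.915 CPM after Ad-Cre. The +Cre libraries lay below the +GFP libraries of *Rtel1* F/F cells without overlap, but the log2 fold change of -0.70 (SE 0.397) did not pass the test (adjusted p = 0.142), and TMPyP4 gave 0.45 with overlapping libraries (SE 0.378, adjusted p = 0.352). With the RTEL1 C1252A/C1255A control these values were 0.03 (adjusted p = 0.990) and 1.19 (adjusted p = 0.0328), the second of which was called when libraries with the same replicate number were blocked (1.23, adjusted p = 0.00218). Directly against TMPyP4-treated cells, +Cre cells had a log2 fold change of -1.16 (SE 0.396, adjusted p = 0.0406), which was also called with the block (-1.18, adjusted p = 0.00317). *Terf1* F/F cells had 3, 2 and 2 counts with Ad-GFP and 13, 3 and 0 counts with Ad-Cre. The sum of counts, scaled by depth, was 43.2 times higher in *Rtel1* F/F +GFP than in *Terf1* F/F +GFP libraries (exact 95% interval 20.8 to 108), and the ratio of *Terf1* F/F +Cre to +GFP was 2.29 with an interval that includes no difference (0.892 to 6.59). These intervals cover counting error only.

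*Sfrp1* encodes a secreted Frizzled-related protein that binds Wnt ligands. Its level was 0.445, 0.247 and 0.401 CPM in *Rtel1* F/F +GFP, 0.606, 0.645 and 0.682 CPM in +Cre, and 0.222, 0.217 and 0.119 CPM in TMPyP4-treated cells. The RTEL1 C1252A/C1255A libraries had 0.388, 0.380 and 0.388 CPM with Ad-GFP and 0.843, 0.908 and 0.610 CPM with Ad-Cre, and *Terf1* F/F cells had 14.8, 12.6 and 12.4 CPM with Ad-GFP and 18.2, 15.2 and 12.5 CPM with Ad-Cre. In all 3 pairs of +GFP and +Cre groups the mean was higher with Cre, without overlap in both *Rtel1* F/F backgrounds and with overlap in *Terf1* F/F cells. The rise after *Rtel1* loss (log2 fold change 0.82, SE 0.238, adjusted p = 0.00718) passed the test, but it was lost without any single library other than +GFP library 1, with an adjusted p of 0.051 and a log2 fold change of 0.62 without +GFP library 2, 0.0118 and 0.91 without +GFP library 3, 0.0131 and 0.86 without +Cre library 1, 0.0251 and 0.80 without +Cre library 2, and 0.0235 and 0.79 without +Cre library 3. It was also lost with DESeq2 (adjusted p = 0.0141), with only the groups compared (adjusted p = 0.0374) and against the RTEL1 C1252A/C1255A control (0.73, SE 0.241, adjusted p = 0.0525). Cre in RTEL1 C1252A/C1255A cells gave 1.03 (SE 0.231, adjusted p = 0.0188), which was called with replicate numbers blocked (1.02, adjusted p = 0.00827), and no difference between the effects of Cre in both backgrounds was called (difference -0.20, adjusted p = 0.679). TMPyP4 gave values on the other side of the control, at -0.97 (SE 0.301, adjusted p = 0.0172), and this was called only without +GFP library 2 among the libraries left out (-1.20, adjusted p = 0.00753). Between +Cre and TMPyP4-treated cells the difference was 1.80 (SE 0.282, adjusted p = 0.000125), and between *Terf1* F/F and *Rtel1* F/F +GFP cells it was 5.18 (SE 0.203, adjusted p = 1.69e-13).

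*Sfrp2* encodes a related Wnt-binding protein of mesenchymal cells. *Rtel1* F/F +GFP cells had 1.25, 2.86 and 2.48 CPM, +Cre cells 0.373, 0.248 and 0.273 CPM, and TMPyP4-treated cells 0.571, 0.361 and 0.645 CPM. In RTEL1 C1252A/C1255A cells the values were 1.81, 1.66 and 1.55 CPM with Ad-GFP and 0.823, 0.834 and 0.540 CPM with Ad-Cre. *Terf1* F/F cells had 3.34, 2.78 and 2.43 CPM with Ad-GFP and 3.33, 2.41 and 2.33 CPM with Ad-Cre. Each treated group of the *Rtel1* F/F backgrounds lay below its control without overlap, although +GFP library 1 was well below the other +GFP libraries, and both *Terf1* F/F groups overlapped. *Sfrp2* fell after *Rtel1* loss by 2.87 on the log2 scale (SE 0.318, adjusted p = 6.85e-07) and with TMPyP4 by 2.07 (SE 0.294, adjusted p = 2.56e-05). Against the RTEL1 C1252A/C1255A control these changes were -2.47 (SE 0.325, adjusted p = 3.44e-05) and -1.67 (SE 0.301, adjusted p = 0.000427). Cre in RTEL1 C1252A/C1255A cells gave -1.19 (SE 0.281, adjusted p = 0.0262), which DESeq2 called (-1.20, adjusted p = 0.00608), and Cre in *Terf1* F/F cells gave -0.08 (adjusted p = 0.920). No difference between the control cells was called, at -0.40 (adjusted p = 0.195) for RTEL1 C1252A/C1255A and 0.37 (adjusted p = 0.196) for *Terf1* F/F against *Rtel1* F/F cells.

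*Dkk2* belongs to the Dickkopf family, whose founding members bind LRP co-receptors, and it varied most among the 10 genes, with a ratio of 776 between the highest and the lowest group mean. It had 4, 3 and 3 counts in *Rtel1* F/F +GFP cells, 26, 31 and 37 counts in +Cre and 10, 20 and 14 counts with TMPyP4. In CPM this was 0.0890, 0.0617 and 0.0601 for +GFP, 0.606, 0.769 and 1.01 for +Cre, and 0.317, 0.482 and 0.334 for TMPyP4, so that no group overlapped another. Counts were higher in the other groups: RTEL1 C1252A/C1255A cells had 4.01, 2.79 and 3.22 CPM with Ad-GFP and 3.16, 3.48 and 3.26 CPM with Ad-Cre, and *Terf1* F/F cells had 54.8, 54.2 and 54.7 CPM with Ad-GFP and 53.3, 52.4 and 41.9 CPM with Ad-Cre. The +GFP libraries of *Rtel1* F/F cells were therefore the lowest of all 21, and every RTEL1 C1252A/C1255A and *Terf1* F/F library lay above the +Cre and TMPyP4 libraries. Summed counts scaled by depth were 11.3 times higher in +Cre than in +GFP cells (exact 95% interval 5.86 to 24.2) and 5.49 times higher with TMPyP4 (2.72 to 12.2). The fitted changes were 3.45 (SE 0.300, adjusted p = 3.86e-08) and 2.40 (SE 0.346, adjusted p = 2.79e-05). With the RTEL1 C1252A/C1255A control both turned, to -2.08 (SE 0.170, adjusted p = 1.18e-07) and -3.12 (SE 0.192, adjusted p = 2.05e-09). That control itself was 48.6 times above the *Rtel1* F/F +GFP libraries (26.2 to 102), and the *Terf1* F/F +GFP libraries were 783 times above them (425 to 1633). The direct comparison of +Cre with TMPyP4-treated cells gave 1.04 (SE 0.227, adjusted p = 0.00233), a call lost without +Cre library 3 (0.88, adjusted p = 0.0178), TMPyP4 library 1 (0.94, adjusted p = 0.0130) or TMPyP4 library 3 (0.94, adjusted p = 0.0159), and with only the groups compared (1.06, adjusted p = 0.0415). Cre gave -0.02 (adjusted p = 0.998) in RTEL1 C1252A/C1255A and -0.15 (adjusted p = 0.647) in *Terf1* F/F cells.

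*Dkk3*, the divergent member of the Dickkopf family, stood at 164.7, 149.6 and 150.1 CPM in *Rtel1* F/F +GFP, 65.2, 66.4 and 70.7 CPM in +Cre, and 96.4, 96.3 and 99.9 CPM in TMPyP4-treated cells. In RTEL1 C1252A/C1255A cells it stood at 112, 116 and 114 CPM with Ad-GFP and 79.9, 84.0 and 81.6 CPM with Ad-Cre, and *Terf1* F/F cells 143, 149 and 149 CPM with Ad-GFP and 135, 143 and 133 CPM with Ad-Cre. None of the 7 groups overlapped its neighbour in the order of means, which ran from *Rtel1* F/F +GFP, through both *Terf1* F/F groups, RTEL1 C1252A/C1255A +GFP, TMPyP4 and RTEL1 C1252A/C1255A +Cre, down to *Rtel1* F/F +Cre. The fall after *Rtel1* loss was called (log2 fold change -1.20, SE 0.0534, adjusted p = 1.32e-11), as was that with TMPyP4 (-0.67, SE 0.0528, adjusted p = 5.24e-08). With the RTEL1 C1252A/C1255A control they were smaller, at -0.75 (SE 0.0530, adjusted p = 1.83e-08) and -0.22 (SE 0.0527, adjusted p = 0.00418). Cre lowered *Dkk3* in RTEL1 C1252A/C1255A cells too (-0.48, SE 0.0528, adjusted p = 7.62e-05), and this was the only call among the 10 genes there with edgeR and no block for the replicate number, where the block added *Sfrp1* and DESeq2 added *Sfrp2* and *Lef1*. The call of *Dkk3* was lost when only those 6 libraries were fitted (-0.48, adjusted p = 0.0847), a fit in which 0 of all genes were called. The effect of Cre was larger in *Rtel1* F/F than in RTEL1 C1252A/C1255A cells (difference -0.72, SE 0.0746, adjusted p = 1.69e-06). In *Terf1* F/F cells Cre gave -0.10 (SE 0.0526, adjusted p = 0.351) without overlap between the libraries, and +Cre against TMPyP4-treated *Rtel1* F/F cells gave -0.53 (SE 0.0529, adjusted p = 1.00e-06).

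*Axin2* encodes a scaffold of the complex that degrades β-catenin and is a widely used readout of canonical signalling. Its level was 2.52, 3.95 and 3.45 CPM in *Rtel1* F/F +GFP, 1.14, 0.670 and 1.04 CPM in +Cre, and 4.69, 3.01 and 2.94 CPM in TMPyP4-treated cells. RTEL1 C1252A/C1255A cells had 1.66, 1.22 and 1.32 CPM with Ad-GFP and 0.960, 0.957 and 0.798 CPM with Ad-Cre, and *Terf1* F/F cells had 2.64, 2.67 and 2.11 CPM with Ad-GFP and 2.33, 2.41 and 2.20 CPM with Ad-Cre. The lowest groups were *Rtel1* F/F +Cre and RTEL1 C1252A/C1255A +Cre, which overlapped, and the TMPyP4-treated, *Rtel1* F/F +GFP and *Terf1* F/F groups each overlapped their neighbour at the top. *Axin2* fell after *Rtel1* loss (log2 fold change -1.80, SE 0.224, adjusted p = 2.65e-06) without overlap, but against the RTEL1 C1252A/C1255A control the value was -0.56 (SE 0.235, adjusted p = 0.139). TMPyP4 gave 0.09 (SE 0.202, adjusted p = 0.739) against *Rtel1* F/F +GFP cells and 1.32 (SE 0.215, adjusted p = 0.000164) against the RTEL1 C1252A/C1255A control. The first of these values changed sign without +GFP library 1 (-0.07, adjusted p = 0.820) or TMPyP4 library 1 (-0.15, adjusted p = 0.565). Free of either control, +Cre cells were lower than TMPyP4-treated cells by a log2 fold change of -1.89 (SE 0.226, adjusted p = 7.45e-06). RTEL1 C1252A/C1255A +GFP cells were below *Rtel1* F/F +GFP cells before any Cre (-1.23, SE 0.214, adjusted p = 9.07e-05). Cre gave -0.63 (SE 0.234, adjusted p = 0.180) in RTEL1 C1252A/C1255A and -0.10 (SE 0.209, adjusted p = 0.884) in *Terf1* F/F cells.

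*Nkd1* encodes a Dishevelled-binding inhibitor that canonical signalling induces. *Rtel1* F/F +GFP cells had 1.45, 2.51 and 1.98 CPM, +Cre cells 0.303, 0.149 and 0.164 CPM, and TMPyP4-treated cells 0.856, 0.602 and 0.931 CPM. RTEL1 C1252A/C1255A cells had only 1, 3 and 4 counts with Ad-GFP and 3, 2 and 1 counts with Ad-Cre, too few for a fold change between them, while *Terf1* F/F cells had 0.765, 0.667 and 0.471 CPM with Ad-GFP and 0.790, 0.412 and 0.402 CPM with Ad-Cre. The *Rtel1* F/F +GFP libraries were the highest of all 21. Summed counts scaled by depth were 9.55 times higher in *Rtel1* F/F +GFP than in +Cre cells (exact 95% interval 6.34 to 15.0) and 31.7 times higher than in RTEL1 C1252A/C1255A +GFP cells (15.9 to 74.0). After *Rtel1* loss *Nkd1* fell by 3.24 on the log2 scale (SE 0.343, adjusted p = 3.94e-07), and with TMPyP4 by 1.32 (SE 0.284, adjusted p = 0.00119), a call that was lost without TMPyP4 library 2 (-1.14, adjusted p = 0.0106). With the RTEL1 C1252A/C1255A control both values were positive, at 1.67 (SE 0.575, adjusted p = 0.0646) and 3.59 (SE 0.464, adjusted p = 1.52e-05). In the direct comparison +Cre cells were below TMPyP4-treated cells (-1.92, SE 0.377, adjusted p = 0.000997), and *Terf1* F/F +GFP cells were below *Rtel1* F/F +GFP cells (-1.63, SE 0.288, adjusted p = 7.28e-05).

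*Lef1*, which encodes a DNA-binding partner of β-catenin, separated the lines. The *Rtel1* F/F groups had 16.5, 14.9 and 15.4 CPM in +GFP, 20.6, 18.4 and 18.8 CPM in +Cre, and 20.7, 20.3 and 19.3 CPM in TMPyP4-treated cells. RTEL1 C1252A/C1255A cells had 18.4, 15.6 and 15.7 CPM with Ad-GFP and 14.1, 12.7 and 12.2 CPM with Ad-Cre, whereas *Terf1* F/F cells had 2.16, 2.30 and 2.23 CPM with Ad-GFP and 1.89, 1.47 and 2.25 CPM with Ad-Cre. In *Rtel1* F/F cells both treated groups lay above the control, and in RTEL1 C1252A/C1255A cells +Cre lay below +GFP, in each case without overlap. The change after *Rtel1* loss was 0.31 (SE 0.105, adjusted p = 0.0191), which did not pass the test with edgeR and no block but did with DESeq2 (0.32, adjusted p = 0.00119). Blocking replicate numbers in edgeR also gave a call, although the numbers do not pair these libraries. It was not called with any single library left out (adjusted p from 0.0181 to 0.0741) or with the RTEL1 C1252A/C1255A control (0.22, adjusted p = 0.205). TMPyP4 raised *Lef1* by 0.36 (SE 0.105, adjusted p = 0.00913). That call was lost without any single library other than +GFP library 1, at an adjusted p of 0.0445 for 0.32 without +GFP library 2, 0.0364 for 0.33 without +GFP library 3, 0.0286 for 0.34 and 0.36 without TMPyP4 library 1 or 2, and 0.0179 for 0.39 without TMPyP4 library 3, with a filter of at least 10 counts in every library (0.35, adjusted p = 0.0116), and with the RTEL1 C1252A/C1255A control (0.28, adjusted p = 0.0570). Cre in RTEL1 C1252A/C1255A cells gave -0.35 (SE 0.105, adjusted p = 0.0822), which DESeq2 called (-0.36, adjusted p = 0.00552), and the effects of Cre in both backgrounds differed by the test (difference 0.66, SE 0.148, adjusted p = 0.00208). In *Terf1* F/F +GFP cells *Lef1* was lower than in *Rtel1* F/F +GFP cells (-2.81, SE 0.118, adjusted p = 4.21e-13), and Cre there gave -0.26 (SE 0.126, adjusted p = 0.296).

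*Wisp1*, also known as Ccn4, encodes a secreted matricellular protein of the CCN family and is induced by canonical signalling. It was abundant in all groups, with 205, 159 and 162 CPM in *Rtel1* F/F +GFP, 174, 173 and 149 CPM in +Cre, and 283, 256 and 267 CPM in TMPyP4-treated cells. The RTEL1 C1252A/C1255A groups had 181, 179 and 163 CPM with Ad-GFP and 169, 156 and 143 CPM with Ad-Cre, and *Terf1* F/F cells had 273, 255 and 262 CPM with Ad-GFP and 228, 211 and 232 CPM with Ad-Cre. The TMPyP4-treated and *Terf1* F/F +GFP libraries were the highest and overlapped each other, *Terf1* F/F +Cre libraries lay below them, and the other 4 groups each overlapped their neighbour. TMPyP4 raised *Wisp1* by 0.62 (SE 0.0927, adjusted p = 4.45e-05), with the same rounded value against the RTEL1 C1252A/C1255A control (SE 0.0927, adjusted p = 6.63e-05). *Rtel1* loss gave -0.09 (SE 0.0924, adjusted p = 0.450) with overlapping libraries, a value that changed sign without +GFP library 1, the highest of its group (0.04, adjusted p = 0.692). *Rtel1* F/F +Cre cells were thus below TMPyP4-treated cells in the direct comparison (-0.70, SE 0.0928, adjusted p = 2.29e-05). *Terf1* F/F +GFP cells were above *Rtel1* F/F +GFP cells (0.59, SE 0.0926, adjusted p = 2.19e-05). Cre in *Terf1* F/F cells gave -0.24 (SE 0.0924, adjusted p = 0.166), and this was the gene with an unadjusted p under 0.05 in that comparison. In RTEL1 C1252A/C1255A cells Cre gave -0.16 (SE 0.0925, adjusted p = 0.499).

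**Figure D2:**
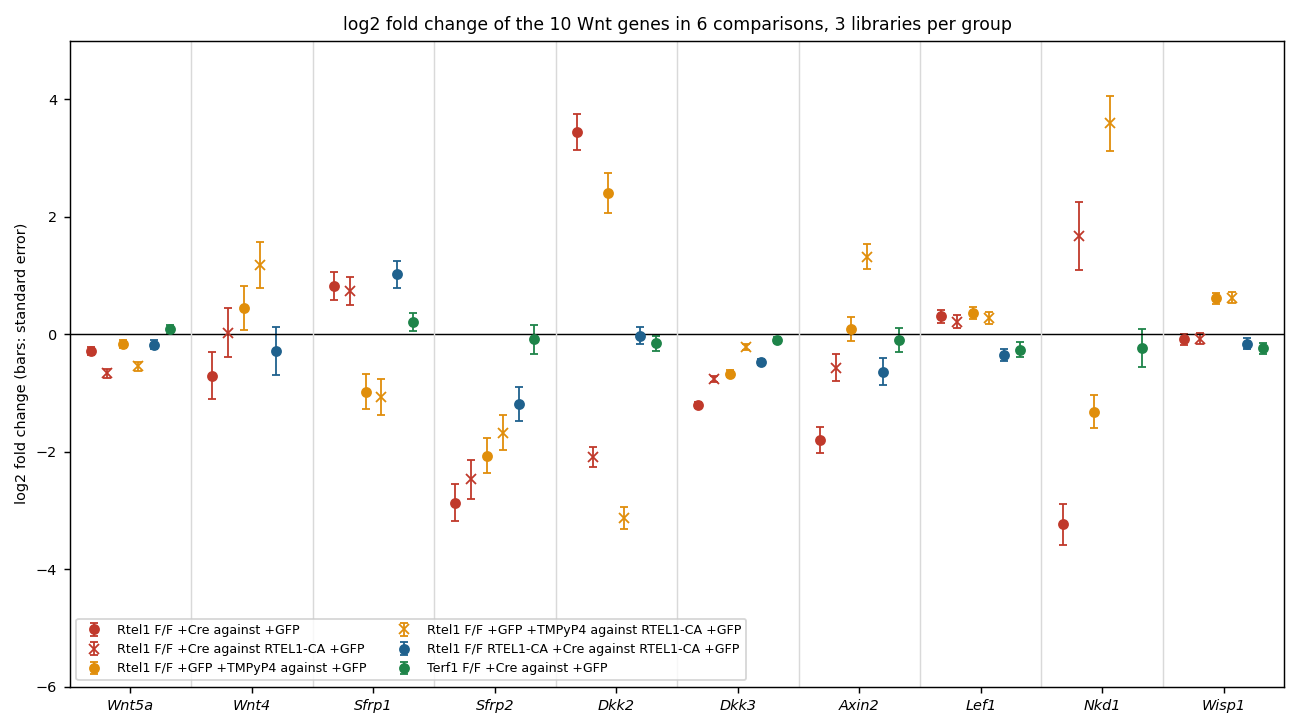
Log2 fold change of each of the 10 Wnt genes in 6 comparisons of 3 against 3 libraries, with SE bars, where crosses mark the comparisons against RTEL1 C1252A/C1255A +GFP cells. *Nkd1* in RTEL1 C1252A/C1255A cells and *Wnt4* in *Terf1* F/F cells are left out because of their low counts. *Dkk2* and *Nkd1* change sign with the control, as does *Wnt4* after *Rtel1* loss, which was not called with either control. *Nkd1* after *Rtel1* loss was not called with the RTEL1 C1252A/C1255A control.

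The 10 genes were set beside the rest of their pathway. Lists of Wnt ligands, secretion genes, secreted antagonists, receptors, R-spondin and receptor turnover genes, cytoplasmic transducers, nuclear factors, transcriptional targets, the CCN family and planar polarity genes held 103 tested genes in all, the 10 genes included, and some genes stand in more than 1 list. After *Rtel1* loss 67 of the 103 (65%) were called, 15 higher and 52 lower, where 43.0% of all genes were called. The median log2 fold change of the 103 was -0.48 where that of all genes was -0.03. With TMPyP4 49 (47.6%) were called, 15 higher and 34 lower, with a median of -0.28, where 30.0% of all genes were called, and leaving out 1 library gave 29 to 51, the lowest without TMPyP4 library 2. Against the RTEL1 C1252A/C1255A control, *Rtel1* F/F +Cre cells had 18 called pathway genes, 5 higher and 13 lower, beside 7.76% of all genes. TMPyP4-treated cells had 26 against that control, 17 higher and 9 lower, beside 17.0% of all genes. RTEL1 C1252A/C1255A +GFP cells themselves differed from *Rtel1* F/F +GFP cells in 61 pathway genes (59.2%), 14 higher and 47 lower, beside 44.7% of all genes. These counts describe the lists, and no test of a list was made.

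The counts by list after *Rtel1* loss stand beside 22.0% of all genes called higher and 21% called lower. The ligand list had 12 tested genes, of which 1 was higher and 4 were lower, among them *Wnt6* (-3.37, SE 0.332, adjusted p = 2.74e-07) beside *Wnt5a*. *Wnt6* encodes a ligand of epithelia and somites, and its value was 0.14 (adjusted p = 0.880) with the RTEL1 C1252A/C1255A control. Among the 9 antagonists tested, 2 rose and 5 fell, and *Igfbp4*, an IGF-binding protein that also blocks Wnt receptors, fell with *Sfrp2* and *Dkk3* (-1.82, SE 0.174, adjusted p = 1.20e-07). It was also lower against the RTEL1 C1252A/C1255A control (-0.84, adjusted p = 0.00348). Of the 16 receptors tested, 9 were called lower and 7 were not called, and *Fzd1* had the largest fall among those called (-4.20, SE 0.186, adjusted p = 1.37e-11), which was -0.97 with the other control (adjusted p = 0.000706). Of the 6 secretion genes 4 rose and 1 fell, *Wls*, the carrier that takes Wnt proteins to the cell surface (-0.59, SE 0.0676, adjusted p = 1.00e-06). The other control left *Wls* at -0.16 (adjusted p = 0.137).

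Downstream of the receptors, 2 of 21 cytoplasmic transducers rose and 10 fell after *Rtel1* loss, *Nkd1* and *Axin2* with the largest falls. *Dact3*, a Dishevelled regulator, was also lower (-1.22, SE 0.193, adjusted p = 3.80e-05; -0.05 with the RTEL1 C1252A/C1255A control, adjusted p = 0.930). All 9 called nuclear factors, of 12 tested, were lower, such as *Tcf7l2*, a TCF factor related to *Lef1* (-0.995, SE 0.0974, adjusted p = 1.55e-07; -0.31 with the other control, adjusted p = 0.0442). Of 15 tested targets 3 rose and 6 fell. *Ccnd1*, a cyclin, rose (1.35, SE 0.151, adjusted p = 8.12e-07), as did *Cd44*, a hyaluronan receptor (1.12, SE 0.0934, adjusted p = 2.41e-08), in the same comparison in which *Axin2*, *Nkd1* and the ubiquitin ligase gene *Rnf43* (-3.24, SE 0.276, adjusted p = 3.08e-08) fell. With the RTEL1 C1252A/C1255A control *Ccnd1* had 0.46 (adjusted p = 0.0510), *Cd44* 0.38 (adjusted p = 0.00974) and *Rnf43* -1.06 (adjusted p = 0.0281). Among R-spondin and turnover genes 1 of 7 rose and 3 fell, *Rspo2*, a secreted amplifier of Wnt signals, by 1.36 with a fall against either control (-0.52, adjusted p = 0.00335 for the RTEL1 C1252A/C1255A control). In the CCN family, 1 of 5 rose and 2 fell while *Wisp1* was not called. *Wisp2*, which encodes a matricellular protein like that of *Wisp1*, was among those that fell (-3.96, SE 0.224, adjusted p = 2.10e-10; -1.05 with the other control, adjusted p = 0.00414). The planar polarity list had 1 of 10 higher, *Daam1*, a formin that acts downstream of non-canonical ligands (0.63, SE 0.0703, adjusted p = 7.81e-07), and 8 lower. With the RTEL1 C1252A/C1255A control *Daam1* had 0.37 (adjusted p = 0.00121), and no other gene of that list was called.

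TMPyP4 gave calls in each of the pathway lists, beside 16.6% of all genes called higher and 13.4% called lower. By list, 1 of 12 ligands rose and 4 fell, 3 of 6 secretion genes rose and 0 fell with edgeR, and 1 of 9 antagonists rose and 4 fell. Among receptors 1 of 16 rose and 5 fell, and among R-spondin and turnover genes 0 of 7 rose and 3 fell. Transducers had 2 of 21 higher and 4 lower, nuclear factors 1 of 12 higher (*Lef1*) and 4 lower, and targets 3 of 15 higher (*Ccnd1*, *Wisp1* and *Lef1*) and 5 lower. The CCN family was called in all 5 tested genes, 3 higher and 2 lower, and planar polarity had 2 of 10 higher and 7 lower. *Ctgf*, a CCN gene known as a target of the Hippo pathway, rose (1.34, SE 0.0900, adjusted p = 7.90e-09) but had -0.11 with the RTEL1 C1252A/C1255A control (adjusted p = 0.388), unlike *Wisp1*. The other CCN genes also turned with that control, *Cyr61* to -0.305 (adjusted p = 0.0354), *Wisp2* to 1.31 (adjusted p = 0.000116) and *Nov* to 1.04 (adjusted p = 0.00131). So did the target *Ccnd1* (-0.137, adjusted p = 0.544). *Prickle1*, a planar polarity gene, fell against both controls (-1.70, SE 0.128, adjusted p = 3.22e-08, and -0.76, adjusted p = 0.00152). *Fzd1* fell with TMPyP4 (-1.56, SE 0.164, adjusted p = 1.34e-06) but was higher against the RTEL1 C1252A/C1255A control (1.67, adjusted p = 9.70e-07).

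Fewer pathway genes were called after Cre in the other cells. In RTEL1 C1252A/C1255A cells edgeR called 3 of the 103 (2.91%), all lower, beside 1.09% of all genes: *Dkk3*, *Fzd1* (-0.93, SE 0.172, adjusted p = 0.00491, not called with replicate numbers blocked, adjusted p = 0.0106) and *Rspo2* (-0.64, SE 0.111, adjusted p = 0.00302). DESeq2 called 7 there, blocking replicate numbers gave 5, fitting only those libraries gave 0, and leaving out 1 library gave 1 or 2, so that this count rests on few genes. In *Terf1* F/F cells 4 of the 103 (3.88%) were called, close to the 3.42% of all genes. *Cd44* (0.51, SE 0.0926, adjusted p = 0.00164) and *Ror1*, a receptor for *Wnt5a* protein (0.64, SE 0.133, adjusted p = 0.00487), rose, and *Wls* (-0.41, SE 0.0675, adjusted p = 0.000635) and *Rhou*, a small GTPase gene (-0.36, SE 0.0565, adjusted p = 0.000403), fell. Without *Terf1* F/F +Cre library 2 the count was 0, and without other single libraries it was 1 to 4. The direct comparison of +Cre with TMPyP4-treated cells called 33 pathway genes (32%), 7 higher and 26 lower in +Cre cells, beside 15.2% of all genes. Between *Terf1* F/F and *Rtel1* F/F +GFP cells 65 (63.1%) were called, 34 higher and 31 lower, beside 54.9% of all genes, and *Lgr5*, the R-spondin receptor that is also a target, was far higher in *Terf1* F/F cells (9.89, SE 0.348, adjusted p = 5.18e-12). *Lgr5* had a mean of 0.01 TPM in *Rtel1* F/F +GFP and 9.82 TPM in *Terf1* F/F +GFP cells. The size of its fitted value therefore rests on a group with almost no transcripts.

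For each of the 10 genes, the other genes with the most similar log2 CPM over the 21 libraries were sought among 10234 genes that averaged 5 CPM or more. The points share lines and groups, and several of the genes differ strongly between lines, so that these correlations describe the pattern only. *Dkk3*, *Sfrp2* and *Axin2* had no called difference between *Terf1* F/F and *Rtel1* F/F +GFP cells (log2 fold changes of -0.08, 0.37 and -0.42). *Wnt5a* was closest to *Slc8a1* and *Lhx9* (Pearson r = 0.994 for both, n = 21), and *Wnt4* to the ligand gene *Wnt10a* (r = 0.965) and to *Pola2* (r = 0.963). Among the antagonists, *Sfrp1* was closest to *Adcy7* (r = 0.983) and *Ddx24* (r = 0.982), and *Sfrp2* to *Lpar2* (r = 0.923) and *Plcg2* (r = 0.921). For *Dkk2* they were *Fgf10* (r = 0.988) and *Car12* (r = 0.986), and for *Dkk3* the genes *Gas1* (r = 0.968) and *Col11a1* (r = 0.967). Among the 10 genes, the value of the closest gene was lowest for *Sfrp2*, *Axin2* and *Wisp1*. *Dkk3*, with no called difference between lines, had a higher value (r = 0.968). *Axin2* was closest to *Rhobtb1* (r = 0.930) and *Tsc22d3* (r = 0.929), *Lef1* to *Pcdhga11* (r = 0.989) and *Polh* (r = 0.988), and *Nkd1* to *Sspn* (r = 0.966) and *Tgfbi* (r = 0.955). *Wisp1* was closest to *Adamtsl3* (r = 0.956) and *Ppm1a* (r = 0.941).

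The 10 genes lie on 7 chromosomes of the mouse build GRCm38.p6, *Sfrp2*, *Lef1* and *Dkk2* on chromosome 3, *Sfrp1* and *Nkd1* on chromosome 8, and the others each on a chromosome of their own. *Lef1* (chr3:131110297-131224357) and *Dkk2* (chr3:132085266-132180304) are the closest pair, and they differed in opposite directions between the *Terf1* F/F and *Rtel1* F/F +GFP cells. RefSeq promoter windows of 250 bases before to 50 bases after a transcript start were at hand for 6 of the 10 genes, with 9 windows in all, and not for *Wnt5a*, *Sfrp1*, *Dkk3* and *Wisp1*. Because TMPyP4 binds G4 DNA, the windows were searched on both strands for 4 runs of at least 3 G with gaps of 1 to 7 bases. Of all 32851 windows, 18.6% held this motif. It was found in 5 windows of 3 of the genes, *Lef1* (3 of its 4 windows), *Wnt4* and *Axin2*, and not in those of *Sfrp2*, *Dkk2* and *Nkd1*. The *Lef1* windows that start at 131110047 and 131110073 overlap and hold the same copies of it. In *Wnt4* both copies lay on the opposite strand, from 205 and from 51 bases before the start of the gene. In *Axin2* it lay on the strand of the gene, 71 to 51 bases before a transcript start inside the gene (window chr11:108920099-108920398, with the gene starting at 108917828). Only the *Wnt4* window and 1 of the *Lef1* windows had all their upstream bases outside the gene. A TCF/LEF core, CTTTG followed by A or T and again by A or T, was searched on both strands and was in 16.9% of all windows. Of the 9 windows 1 held it, a window of *Lef1* that starts inside the gene and holds no G4 motif. A match of letters is a description, and the data do not show whether these stretches fold or are bound.

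With TMPyP4 against *Rtel1* F/F +GFP cells *Lef1* was called higher and *Wnt4* was not called. The call of *Lef1* was lost without any single library other than +GFP library 1, and with the RTEL1 C1252A/C1255A control (adjusted p = 0.0570). The stretches upstream of both genes are printed as RefSeq gives them on the plus strand, which is the strand of both, with the G4 motifs in capitals (runs of C are the motif on the other strand). They are chr3:131110047-131110296 and chr4:137277385-137277634, the 250 bases before each start.
*Lef1*: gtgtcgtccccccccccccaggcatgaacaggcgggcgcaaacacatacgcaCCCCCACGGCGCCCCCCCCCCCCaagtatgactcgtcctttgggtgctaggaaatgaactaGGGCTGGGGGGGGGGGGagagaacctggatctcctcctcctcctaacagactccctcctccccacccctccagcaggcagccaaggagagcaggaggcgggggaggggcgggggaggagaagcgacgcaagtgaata
*Wnt4*: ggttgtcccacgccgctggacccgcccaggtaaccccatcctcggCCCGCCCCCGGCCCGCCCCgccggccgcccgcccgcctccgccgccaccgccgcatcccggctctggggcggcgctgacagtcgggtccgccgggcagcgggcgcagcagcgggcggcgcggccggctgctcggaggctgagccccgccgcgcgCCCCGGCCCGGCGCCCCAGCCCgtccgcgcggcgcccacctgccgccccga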

How the data were processed

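The authors deposited a gene table with an expected count and a TPM value for each gene and library, made with cutadapt 1.9.1, STAR 2.5.2a and RSEM 1.3.0 on the mouse genome mm10. The expected count values were whole numbers as deposited by the authors, with 0 exceptions, and were used as counts. The TPM values deposited by the authors were used as given, to compare levels between genes and to give levels of marker genes and a few pathway genes by group. They were not normalized between libraries as the CPM values were. *Wisp1*, for example, had 175 CPM and 72.1 TPM in *Rtel1* F/F +GFP cells, against 174 CPM and 60.4 TPM in RTEL1 C1252A/C1255A +GFP cells.

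The counts were tested with edgeR 4.0.16 and limma 3.58.1 under R 4.3.3: TMM normalization, the filterByExpr filter by group, and a robust quasi-likelihood fit of all 21 libraries with a coefficient for each of the 7 groups (14 residual degrees of freedom). Tests were two-sided, adjusted over all 13719 genes tested, and called at adjusted p of at most 0.01. SE is the absolute log2 fold change over the square root of F. Differences between effects of Cre were tested as contrasts in the same fit. For genes with few counts, ratios of summed counts over summed effective depth carry exact 95% intervals. For every gene these cover counting error only, not the spread between libraries. Promoters were searched in Python 3.11.15 with numpy 2.4.6, and figures drawn with matplotlib 3.10.9.

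The alternatives to this fit were DESeq2 1.42.0, edgeR with size factors from DESeq2, testing without a filter, a filter of at least 10 counts in every library, a block for the replicate number, a fit of only the groups compared, adjusted p of at most 0.05, an absolute log2 fold change of at least 1, leaving out each library, and the RTEL1 C1252A/C1255A +GFP libraries as control, the last chosen after seeing the data, as was the replicate block with that control. Whether libraries with the same number belong together was checked by correlating residuals over 11840 genes. This was done for 9 comparisons of 2 groups. Same-numbered libraries did for Cre in RTEL1 C1252A/C1255A cells (r = 0.864, 0.839 and 0.424), for +Cre against TMPyP4-treated cells (r = 0.724, 0.758 and 0.409), and for *Rtel1* F/F +Cre (r = 0.781, 0.811 and 0.195) and TMPyP4-treated cells (r = 0.776, 0.693 and 0.303) against the RTEL1 C1252A/C1255A control. The rule asked for a correlation over 0.1 in every pair, which the other 5 comparisons did not meet, among them Cre in *Terf1* F/F cells (r = 0.552, 0.358 and -0.0998). The Wnt genes and the gene lists were chosen with earlier results of these data known. In each pathway list and comparison, genes named were taken from up to 3 called genes in each direction with the largest change and a mean of at least 1 CPM. No reads were realigned, no enrichment test was made, and *Emr1* and *Mymk*, from the marker lists, were not in the table.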

Additional observations from a re-analysis of the deposited data

Results flagged for a closer look

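What Cre did to 5 of the Wnt genes differed between *Rtel1* F/F and RTEL1 C1252A/C1255A cells by the contrast of both effects in edgeR, each from 3 libraries per group. The difference in log2 fold change was -1.68 for *Sfrp2* (adjusted p = 0.00535), 3.47 for *Dkk2* (adjusted p = 1.08e-06), -0.724 for *Dkk3* (adjusted p = 1.69e-06), -1.16 for *Axin2* (adjusted p = 0.00888) and 0.656 for *Lef1* (adjusted p = 0.00208). The calls of *Sfrp2* and *Axin2* were each lost in 8 of the 12 fits that left out a single library, and with only the groups compared (adjusted p = 0.0153 and 0.0197).

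Between *Rtel1* F/F and *Terf1* F/F cells 7 of the genes differed in the same way. The difference was -0.365 for *Wnt5a* (adjusted p = 0.00725), -2.78 for *Sfrp2* (adjusted p = 3.42e-05), 3.59 for *Dkk2* (adjusted p = 2.43e-07) and -1.1 for *Dkk3* (adjusted p = 6.31e-09). For the target genes it was -1.7 for *Axin2* (adjusted p = 0.000259), 0.567 for *Lef1* (adjusted p = 0.00936) and -3 for *Nkd1* (adjusted p = 8.97e-05). The calls of *Wnt5a* and *Lef1* were each lost in 9 of the 12 fits that left out a single library, and with only the groups compared (adjusted p = 0.0185 and 0.0225). That of *Wnt5a* was also lost with DESeq2 (adjusted p = 0.0111), DESeq2 size factors in edgeR (adjusted p = 0.0195) and no filter on low counts (adjusted p = 0.0300), and that of *Lef1* with at least 10 counts in every library (adjusted p = 0.0103).

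All these differences rest on the *Rtel1* F/F +GFP libraries, which stood apart, and the part of that control in them was not tested.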

How the results depend on the processing

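With 3 libraries per group from a single line per genotype, line, culture and genotype cannot be told apart, and no protein or signalling activity was measured. The number of Wnt genes called kept within 1.5 times in most alternatives. The exceptions for Cre in RTEL1 C1252A/C1255A cells were DESeq2 (3 called in place of 1), the replicate block (2), only the groups compared (0), an adjusted p of at most 0.05 (3) and an absolute log2 fold change of at least 1 (0). With at least 10 counts in every library, where *Dkk2*, *Nkd1*, *Wnt4* and *Sfrp1* are no longer tested, 4 were called after *Rtel1* loss, 3 with TMPyP4, 3 for +Cre against TMPyP4, 3 and 3 for RTEL1 C1252A/C1255A and *Terf1* F/F against *Rtel1* F/F controls, and 4 for the difference from *Terf1* F/F cells. The difference from RTEL1 C1252A/C1255A cells gave 3 with only the groups compared and 3 to 5 when a library was left out. An absolute log2 fold change of at least 1 left 3 with TMPyP4, 3 between the *Rtel1* F/F controls and 3 for that difference. With the RTEL1 C1252A/C1255A control 4 were called after *Rtel1* loss.

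Some changes turned their sign, most of them small. *Wisp1* between the *Rtel1* F/F controls was 0.0175 with DESeq2, 0.0166 with its size factors, 0.00796 with no filter, and 0.123 and 0.0589 without *Rtel1* F/F +GFP library 1 or RTEL1 C1252A/C1255A +GFP library 3, and ranged from -0.0485 to 0.123. After *Rtel1* loss *Wisp1* ranged from -0.136 to 0.0419 without single libraries. *Axin2* with TMPyP4 was -0.0668 and -0.151 without +GFP or TMPyP4 library 1, in a range up to 0.224. *Sfrp1* between the same controls ranged from -0.106 to 0.252, and *Dkk2* with Cre in RTEL1 C1252A/C1255A cells was 0.117 and 0.00791 without library 1 of +GFP or +Cre, in a range from -0.134. *Wnt4* ranged from -0.687 to 0.128 in the difference from RTEL1 C1252A/C1255A cells and from -0.55 to 1.64 in *Terf1* F/F cells, where it rests on 7 counts in +GFP and 16 in +Cre libraries. *Sfrp2* in *Terf1* F/F cells was 0.0479 and 0.00499 without +GFP library 1 or +Cre library 3, in a range from -0.276. None of these was called.

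The alternatives followed the 10 Wnt genes and, for each comparison, a selection of other genes, not every pathway gene. Among these, the RTEL1 C1252A/C1255A control turned these values after *Rtel1* loss: *Wnt4* 0.0293, *Dkk2* -2.08, *Nkd1* 1.67, *Wnt6* 0.135, *Wnt5b* 0.635, *Csnk1a1* -0.037, *Tcf7l1* 0.0366, *Myc* -0.0104, *Tnfrsf19* 0.628, *Ctgf* -0.196 and *Daam2* 0.412. With TMPyP4 it turned *Dkk2* to -3.12, *Nkd1* to 3.59, *Wnt6* to 1.93, *Wnt11* to 0.657, *Wnt5b* to 0.561, *Tmed5* to -0.397, *Vps35* to -0.201, *Fzd6* to -0.0545, *Fzd1* to 1.67, *Fzd8* to 0.0883, *Rnf43* to 0.442 and *Rspo2* to 0.45. It also turned *Csnk1a1* to -0.017, *Nkd2* to 0.776, *Tcf7l1* to 0.41, *Bcl9* to 0.248, *Tcf7l2* to 0.253, *Ccnd1* to -0.137, *Ctgf* to -0.112, *Cyr61* to -0.305, *Wisp2* to 1.31, *Nov* to 1.04, *Daam2* to 1.83 and *Rtel1* to -2.2. Values outside the selection also turned. *Nkd2* had 1.28 TPM after *Rtel1* loss against 2.10 TPM in *Rtel1* F/F +GFP cells, but 1.09 with the other control (adjusted p = 0.000433). *Tnfrsf19* had 1.13 TPM with TMPyP4 against 1.99 TPM in *Rtel1* F/F +GFP cells, but 2.21 with the other control (adjusted p = 5.43e-06). The cause was not tested. With that control the replicate block turned *Myc* (0.00665 after *Rtel1* loss) and *Fzd5* (0.00212 with TMPyP4). Among the Wnt genes, where the numbers pair the libraries, it added *Sfrp1*, for Cre in RTEL1 C1252A/C1255A cells, and *Wnt4*, for +Cre and the RTEL1 C1252A/C1255A control against TMPyP4, and changed no other call. Where they do not, it added *Lef1* after *Rtel1* loss (8 called in place of 7), and 8 pathway genes in place of 4 were called in *Terf1* F/F cells. Without single libraries the calls of *Sfrp2* and *Axin2* in the difference from RTEL1 C1252A/C1255A cells rose to an adjusted p of up to 0.0177 and 0.0242, and those of *Wnt5a* and *Lef1* in the difference from *Terf1* F/F cells to 0.0517 and 0.0226. In TPM 8 of the 10 genes had the same highest and lowest group, *Axin2* and *Wisp1* not.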
